A study of Sus scrofa with 15 samples.

Results

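The genes described here encode the lipases that cut stored triglyceride, the proteins that switch them on or off, and the proteins that coat the lipid droplet of the fat cell: PNPLA2, PNPLA3, LIPE, MGLL, ABHD5, G0S2, PLIN1, PLIN2, CIDEA and CIDEC. The rule that defines the set names these 10 genes by their function and uses no measured value, though earlier results of these data were known when it was made. Of the 10 genes, 9 were found among the 30477 genes of the count files. The identifier that the reference table gives for CIDEA could not be matched to an identifier of these files, so CIDEA was not analysed here. All 9 measured genes passed the filter on low counts. RNA was read from biopsies of the subcutaneous backfat of Iberian pigs, 5 pigs in each of 3 diet groups, taken when the animals were about a year old and had received the diets for the growing period. The control group (C) received a restricted compound feed, the dry olive pulp group (DOP) a restricted compound feed made with dried olive pulp, and the wet crude olive cake group (WCOC) a restricted compound feed together with a freely offered silage of olive cake and straw. Each diet was fed in 1 pen, so diet and pen cannot be told apart, and the pigs sequenced were those with enough good RNA.

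Triglyceride in a fat cell is stored in a droplet covered by perilipins. When the cell is stimulated to release fat, adipose triglyceride lipase, encoded by PNPLA2, removes the first fatty acid, hormone-sensitive lipase (LIPE) acts on the diglyceride, and monoglyceride lipase (MGLL) frees the glycerol. ABHD5 is the co-activator of the PNPLA2 protein, and the G0S2 protein inhibits it. At rest PLIN1 holds ABHD5 at the droplet surface, and phosphorylation of PLIN1 by protein kinase A lets it go. PLIN2 coats droplets in many cell types, macrophages among them, and the CIDE proteins CIDEC and CIDEA take part in the fusion of small droplets into large ones.

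The promoter sequences of the 4 genes on which the comparisons turn are shown because the genes shift in different directions between the diets. Each line holds the 150 bases upstream of the RefSeq start of the gene on Sscrofa11.1, the build of the count files, read 5′ to 3′ on the strand of the gene. Capitals mark motifs that lie wholly inside these bases. PLIN2 lies on the plus strand, with its window at chr1:203683717-203683866. PLIN1 lies on the minus strand, with its window at chr7:55250798-55250947. The G0S2 window, also on the minus strand, is chr9:133288067-133288216, and the ABHD5 window is chr13:27006181-27006330 on the plus strand.
PLIN2: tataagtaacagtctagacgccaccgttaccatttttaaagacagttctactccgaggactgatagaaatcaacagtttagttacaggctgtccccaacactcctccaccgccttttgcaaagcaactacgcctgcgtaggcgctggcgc
PLIN1: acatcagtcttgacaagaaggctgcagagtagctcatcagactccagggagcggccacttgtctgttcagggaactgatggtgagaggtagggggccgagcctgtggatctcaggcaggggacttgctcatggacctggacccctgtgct
G0S2: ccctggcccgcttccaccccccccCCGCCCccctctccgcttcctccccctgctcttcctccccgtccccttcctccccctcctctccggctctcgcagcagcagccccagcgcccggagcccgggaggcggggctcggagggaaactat
ABHD5: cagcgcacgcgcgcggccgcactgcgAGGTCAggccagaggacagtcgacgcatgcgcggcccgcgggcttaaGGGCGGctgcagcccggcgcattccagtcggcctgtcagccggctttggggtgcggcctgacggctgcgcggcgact

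Motifs were searched on both strands from 250 bases before to 50 bases after the start. The GC box GGGCGG stood in 50.6% of 19528 promoters of this length, the TATA box TATAAA in 10.9% and the nuclear receptor half-site AGGTCA in 14.1%. The E-box CACGTG stood in 7.93%, the FOXO site GTAAACA in 2.65% and the cyclic AMP response element TGACGTCA in 2.26%, while an exact PPAR and RXR site, a direct repeat of the half-site with 1 base between the copies, stood in 0.0307%. ABHD5 held a half-site that began 124 bases upstream and GC boxes at 77 and 166 bases. G0S2 held a GC box at 126 bases on the opposite strand and a TATA box that began 3 bases before the annotated start. PLIN1 held a TATA box at 160 bases on the opposite strand, outside the bases printed, and PLIN2 held none of the motifs. The base composition differed as well, since G and C made up 45.6% of the 250 upstream bases of PLIN2, 48.8% of those of PLIN1, 72.0% of those of ABHD5 and 77.2% of those of G0S2. Among the other members, PNPLA2 held 5 GC boxes, LIPE 3, MGLL 1 beside an E-box, PNPLA3 1 and CIDEC none of the motifs.

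The libraries held between 22373715 and 34745218 counts on genes. ADIPOQ, the adiponectin gene that defines the fat cell, had a mean level of 5011 CPM (counts per 1e+06 counts on genes, after scaling). Of the 10 symbols listed as adipocyte markers, 8 could be tested (CFD was listed at 0 in all libraries, and TUSC5 matched no identifier). The biopsies also held other tissue. The summed level of the 6 matched skeletal muscle markers, of 12 listed, ran from 17.5 to 3792 CPM in C and WCOC and from 33.3 to 46835 CPM in DOP, where DOP replicate 5 was the highest. The 12 macrophage markers summed to 298 to 886 CPM in C, 203 to 505 CPM in DOP and 149 to 385 CPM in WCOC. In bulk tissue, fewer cells of a type and less RNA per cell cannot be told apart. Control replicates 1 to 4 and all WCOC libraries were read on a flow cell other than that of control replicate 5 and all DOP libraries, so a difference between WCOC and DOP and a difference between flow cells cannot be told apart.

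PLIN1 was by far the most abundant of the genes at the level of RNA per length. The exon lengths are those of RefSeq and the annotation release used for counting is not stated, so comparisons between genes are approximate. Dividing CPM by the exon length in kilobases gave 1924 ± 388 CPM per kb for PLIN1 (SD over 15 libraries), which made up 59.4% of the sum of the 9 genes and was above CIDEC in 15 of 15 libraries. CIDEC stood at 364 ± 90.1 CPM per kb, LIPE at 308 ± 61.5 and PNPLA2 at 304 ± 59.1. These 3 neighbours were not separated by their spread, since CIDEC was above LIPE in 11 of 15 libraries and LIPE above PNPLA2 in 8 of 15. MGLL followed with 155 ± 30.1 CPM per kb, below PNPLA2 and above PNPLA3 in 15 of 15 libraries.

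The 4 lowest genes lay close together per length. PNPLA3, a close relative of PNPLA2 with lipase and acyltransferase activities, had 59.3 ± 25.2 CPM per kb, PLIN2 46.3 ± 17.9, ABHD5 42.8 ± 8.97 and G0S2 37.5 ± 24.3. PNPLA3 exceeded PLIN2 in 10 of 15 libraries, PLIN2 exceeded ABHD5 in 5 of 15 and ABHD5 exceeded G0S2 in 8 of 15, so their order was not fixed. In CPM, PLIN1 ranked 28th of the 14918 tested genes, LIPE 69th, PNPLA2 134th, MGLL 136th and CIDEC 176th, while ABHD5 ranked 3263rd and G0S2 5433rd.

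**Figure D1:**
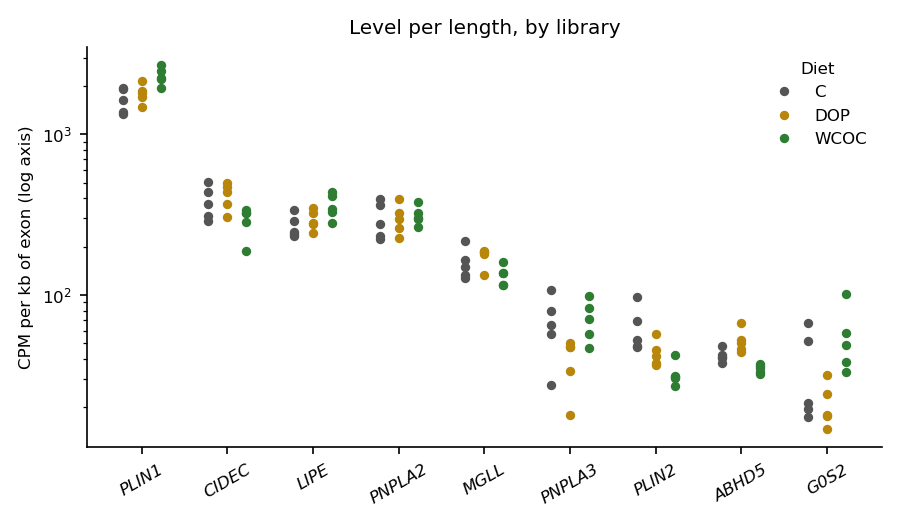
Level of the 9 measured genes per length (CPM per kb of exon, log axis), with each point 1 library, coloured by diet, and genes ordered by their mean over 15 libraries. PLIN1 stands apart above the rest, and the points of PNPLA3, PLIN2, ABHD5 and G0S2 overlap.

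A gene was called a differentially expressed gene (DEG) where the adjusted p of edgeR's quasi-likelihood test was under 0.05 and the log2 fold change (log2FC) at least 0.58 in size. In DOP vs. C, 0 of the 9 genes were called, beside 0.215% of all 14918 tested genes called higher and 0.55% called lower. DESeq2 and limma-voom called 0 as well, and 3 of the 9 had an unadjusted p under 0.05 (PNPLA3, ABHD5 and PLIN2), as did 17.6% of all genes. In WCOC vs. C, 1 of the 9 was called, PLIN2, which was lower in WCOC. The background was 2.33% called higher and 3.93% called lower. In WCOC vs. DOP, 1 of the 9 was called, G0S2, which was higher in WCOC, beside 2.65% of all genes called higher and 5.11% called lower. With 1 call each, the members' count cannot be set apart from these shares. The unadjusted p of edgeR was under 0.05 for 4 of the 9 in WCOC vs. C (26.4% of all genes). In WCOC vs. DOP this held for 7 of the 9 (28.1% of all genes). The adjusted p was under 0.05 for 2 of the 9 in either comparison. No test of the set was run, and WCOC and DOP also differ in flow cell. The median log2FC of the 9 genes was 0.13 in DOP vs. C, 0.07 in WCOC vs. C and 0.06 in WCOC vs. DOP, beside medians of 0.011, 0.004 and 0.001 over all genes. DOP vs. C and WCOC vs. C share the control libraries, and each diet enters 2 of the 3 comparisons.

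**Figure D2:**
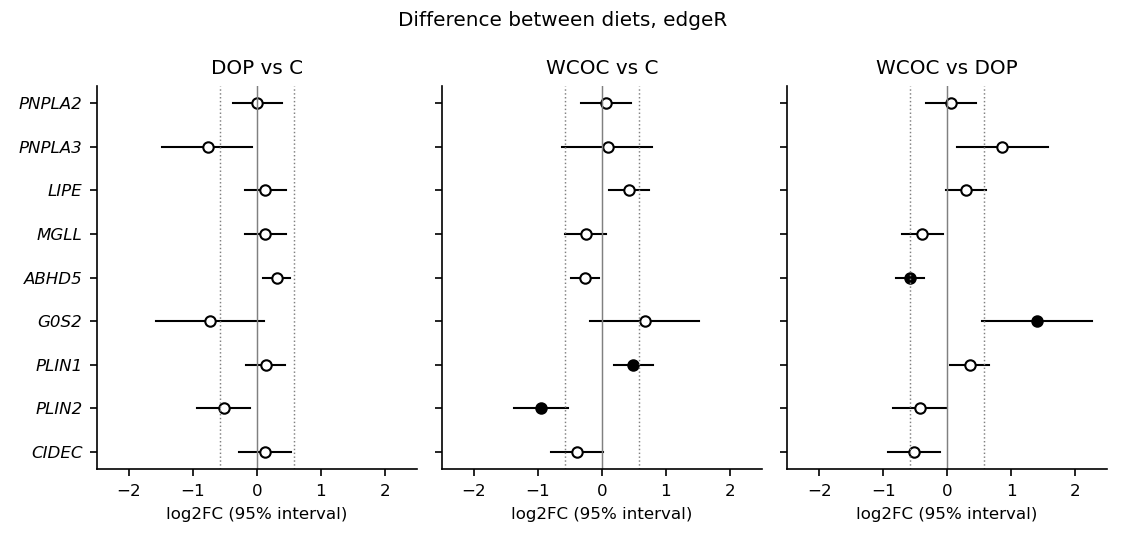
log2FC of the 9 genes in the 3 comparisons with 95% intervals (edgeR, 5 libraries per diet), with filled points for an adjusted p under 0.05 and dotted lines at 0.58 on either side of 0. PLIN2 in WCOC vs. C (-0.95) and G0S2 in WCOC vs. DOP (1.40) lie beyond the dotted lines with filled points, while PLIN1 in WCOC vs. C (0.49) and ABHD5 in WCOC vs. DOP (-0.58) are filled but lie within or on them.

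PLIN2, the perilipin found on droplets of many cell types besides the fat cell, was lowest in the pigs fed WCOC. The gene (ENSSSCG00000035863) lies on chromosome 1 from 203683867 to 203709277, and a RefSeq gene model on the same strand overlaps it. If the counting used that model, reads on the overlap may have been left out as ambiguous. Its level was 117, 119, 169, 128 and 237 CPM in control replicates 1 to 5. In DOP it was 92.5, 112, 141, 90.1 and 102 CPM, and in WCOC 74.3, 104, 76.7, 67.0 and 76.2 CPM. Every WCOC library lay below every control library, and the DOP libraries overlapped both. The share of all genes with such a separation between 2 diets is not given, here or for the genes below. PLIN2 was 1.94-fold lower in WCOC than in C (79.7 ± 14.3 against 154 ± 51.1 CPM), with a log2FC of -0.95 ± 0.20 (SE), a 95% interval from -1.37 to -0.53 and an edgeR adjusted p of 0.00946. The call held in 10 of 10 fits that left out 1 library, with a log2FC between -1.08 and -0.74. It also held on the flow cell shared by 4 control and all WCOC libraries (log2FC -0.75, adjusted p 0.0236 with edgeR).

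In DOP vs. C, PLIN2 had a log2FC of -0.52 (95% interval -0.94 to -0.11) and in WCOC vs. DOP one of -0.43 (-0.85 to -0.02), with edgeR adjusted p of 0.187 and 0.162. Neither passed the test. With flow cell as a covariate the log2FC in DOP vs. C was -1.14 and passed (edgeR adjusted p 0.036). In that fit control replicate 5, the highest PLIN2 library, is the only control library that shares the flow cell of DOP, and without control replicate 5 the log2FC was -0.31 (adjusted p 0.364).

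Macrophage markers were lower together with PLIN2 in WCOC vs. C. All 12 had a negative log2FC and 6 of 12 were called lower, with a median log2FC of -1.17, and their summed level had a median of 415 CPM in C and 171 CPM in WCOC. CD68, a lysosomal protein used to mark macrophages, fell from 24.5 ± 16.4 to 5.70 ± 2.46 CPM (log2FC -2.11, SE 0.47, edgeR adjusted p 0.0141). Of 7 markers of lipid-associated macrophages, 5 were called lower in WCOC vs. C, with a median log2FC of -2.21, and their sum ran from 297 to 1758 CPM in C and from 201 to 460 CPM in WCOC. Over all genes 3.93% were called lower. Both lists were chosen with earlier results of these data known. The paper's table of its largest changes holds SPP1, MMP9 and TM4SF19 for DOP and TM4SF19 for WCOC, so the counts of the 7 are not independent of those results. Without 1 library the number called ran from 1 to 12 for the 12 markers and from 1 to 6 for the 7. The lowest counts (1 to 4 and 1 to 3) came without control replicate 3 or 5 or WCOC replicate 1, 3, 4 or 5, and the 12 without WCOC replicate 2. On the flow cell shared by 4 control and all WCOC libraries 1 of each list was called.

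In the other comparisons the directions paired as well, except for the lipid-associated markers in WCOC vs. DOP. The log2FC in WCOC vs. DOP was positive for all 7 lipid-associated markers (median 0.85, 0 called by edgeR, 2 at an unadjusted p under 0.05) and -0.43 for PLIN2, while the 12 macrophage markers had a median of -0.55. In DOP vs. C, PLIN2 had a log2FC of -0.52 and did not pass the test. The log2FC was negative for 11 of the 12 macrophage markers (median -0.50, beside 0.011 over all genes) and for all 7 lipid-associated markers. There 5 of the 7 lipid-associated markers, a list chosen with earlier results known, were called lower, with a median log2FC of -2.74, beside 0.55% of all genes. These 5 calls were all lost (0 of 7) when DOP replicate 2, 3, 4 or 5 or control replicate 3 or 5 was left out, and also with limma-voom, with only the diets compared and with a replicate block.

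Single libraries stood out in C and WCOC. Control replicate 5 had the highest PLIN2 level of all libraries (237 CPM), the highest macrophage sum (886 CPM) and the highest lipid-associated macrophage sum (1758 CPM). Within WCOC, replicate 2 was the highest in all 3 measures, at 104, 385 and 460 CPM. DOP did not follow this order. DOP replicate 1 had the highest macrophage and lipid-associated sums of its diet (505 and 327 CPM) at a PLIN2 level of 92.5 CPM, and DOP replicate 3 had the highest PLIN2 level (141 CPM) at sums of 273 and 161 CPM. After the diet means were removed, PLIN2 and the macrophage mean gave a Pearson's r of 0.612 over 15 libraries (permutation p 0.0321, adjusted 0.577 over 18 relations) and a Spearman's rho of 0.575 (permutation p 0.048, adjusted 0.865). Without the 2 libraries farthest from the median of the marker mean r was 0.273, so the relation rests on those libraries. The part of the macrophage markers in the PLIN2 difference was not tested.

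**Figure D3:**
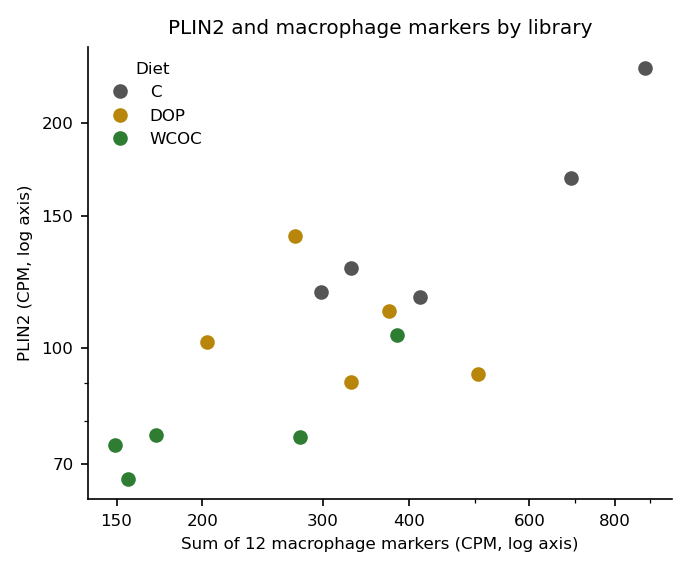
PLIN2 level against the summed level of 12 macrophage markers in the 15 libraries (CPM, both axes logarithmic), coloured by diet. Control replicate 5 lies at the upper right (886 and 237 CPM) and 4 of the 5 WCOC libraries lie below 80 CPM of PLIN2.

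PLIN1, the perilipin of the mature fat cell that guards the droplet surface, differed in the opposite direction. The gene (ENSSSCG00000001844) lies on chromosome 7 from 55237517 to 55250797 and overlaps a gene model on the other strand. Its level in control replicates 1 to 5 was 3055, 2566, 2183, 3042 and 2115 CPM. It was 2693, 2862, 3400, 2936 and 2351 CPM in DOP, and 4252, 3888, 3487, 3074 and 3539 CPM in WCOC. The WCOC libraries all lay above the control libraries, by a margin of 3074 against 3055 CPM at the nearest point. The log2FC in WCOC vs. C was 0.49 ± 0.14 (95% interval 0.19 to 0.80) with an edgeR adjusted p of 0.0427, which is under the threshold for p but below the limit of 0.58 on the log2FC, so PLIN1 was not called. That p was under 0.05 in 3 of 10 fits without 1 library and ran from 0.0411 to 0.122. In WCOC vs. DOP the log2FC was 0.36 (0.05 to 0.66, adjusted p 0.12) and in DOP vs. C 0.14 (-0.17 to 0.44, adjusted p 0.68).

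As the level of PLIN1 was higher and that of PLIN2 lower in WCOC, their ratio spread apart between the diets. Per length, PLIN1 stood at 13.9 to 40.7 times PLIN2 in C, with a median of 33.5. It lay between 36.0 and 50.8 for the DOP libraries (median 39.9) and between 58.1 and 89.3 for the WCOC libraries (median 71.6). Every WCOC library lay above every other library in this ratio, a description of the 2 levels already given.

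G0S2 and ABHD5 act on the same lipase with opposite effect, and their RNA levels also differed in opposite directions between WCOC and DOP. G0S2 (ENSSSCG00000015617) lies on chromosome 9 from 133287065 to 133288066, on the minus strand. Its level was 14.8, 16.7, 43.9, 57.1 and 18.1 CPM in control replicates 1 to 5. In DOP it was 15, 12.5, 20.8, 27 and 15.4 CPM, and in WCOC 42.0, 87.0, 49.7, 28.4 and 32.9 CPM. The control libraries fell into a lower trio and a higher pair and covered much of the range of the other diets. The lowest WCOC library (28.4 CPM) lay just above the highest DOP library (27 CPM). G0S2 was 2.65-fold higher in WCOC than in DOP, with a log2FC of 1.40 ± 0.40 (95% interval 0.54 to 2.27) and an edgeR adjusted p of 0.0363.

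This call depended on single libraries. It held in 4 of 10 fits that left out 1 library, with a log2FC between 1.07 and 1.59 and an edgeR adjusted p between 0.0416 and 0.0854, and it was lost without DOP replicate 1, 2 or 5 or WCOC replicate 1, 2 or 3. With flow cell as a covariate the log2FC was 0.53 (adjusted p 0.787). In every such fit the flow cell term comes from control replicate 5 against the other controls, since no DOP library shares a flow cell with WCOC. Against C, the log2FC of G0S2 was 0.67 in WCOC (-0.18 to 1.52) and -0.73 in DOP (-1.58 to 0.12), and neither passed the test (adjusted p 0.299 and 0.365). The spread within a diet was the widest of the 9 genes in C and WCOC, with coefficients of variation of 63.8% and 48.6%.

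ABHD5 (ENSSSCG00000011297), on chromosome 13 from 27006331 to 27053760, was highest in DOP and lowest in WCOC. Its level was 63.8, 54.0, 54.3, 55.7 and 50.2 CPM in control replicates 1 to 5, 58.3, 66.4, 88.3, 69.6 and 61.0 CPM in DOP, and 47.6, 46.8, 49.6, 42.8 and 43.8 CPM in WCOC. The WCOC libraries lay below all libraries of both other diets, the highest of them (49.6 CPM) just under the lowest control library (50.2 CPM). In WCOC vs. DOP the log2FC was -0.58 ± 0.10 (95% interval -0.80 to -0.36) with an edgeR adjusted p of 0.00452. Before rounding the log2FC was just short of the limit of 0.58, so ABHD5 was not called, and 6 of 10 fits without 1 library called it, with an adjusted p under 0.05 in all 10. With flow cell as a covariate the log2FC was -0.76 and the adjusted p 0.253. The skeletal muscle markers also differed between these diets, 2 of 5 being called lower in WCOC than in DOP (median log2FC -5.83). Without 1 library 0 to 5 were called, with 0 when DOP replicate 5 or WCOC replicate 1, 2, 3 or 5 was left out. Without DOP replicate 5, the library highest in muscle markers, the log2FC was -0.62 for ABHD5 (edgeR adjusted p 0.00606) and 1.35 for G0S2 (adjusted p 0.08).

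Against C, ABHD5 had a log2FC of -0.27 in WCOC (-0.49 to -0.05, edgeR adjusted p 0.11) and 0.31 in DOP (0.09 to 0.52, adjusted p 0.151). Neither passed the test. The WCOC and control libraries did not overlap, but the share of all genes without such overlap is not given. The ratio of PNPLA2 to ABHD5 per length was 5.49 to 8.66 in C, 5.14 to 6.19 in DOP and 7.13 to 10.8 in WCOC. The ratio of PNPLA2 to G0S2 was higher in every DOP library (10.3 to 20.4) than in every WCOC library (3.73 to 9.11), and the control libraries (5.4 to 22.9) covered all of DOP and part of WCOC. Both ratios describe levels already given, and DOP and WCOC also differ in flow cell.

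**Figure D4:**
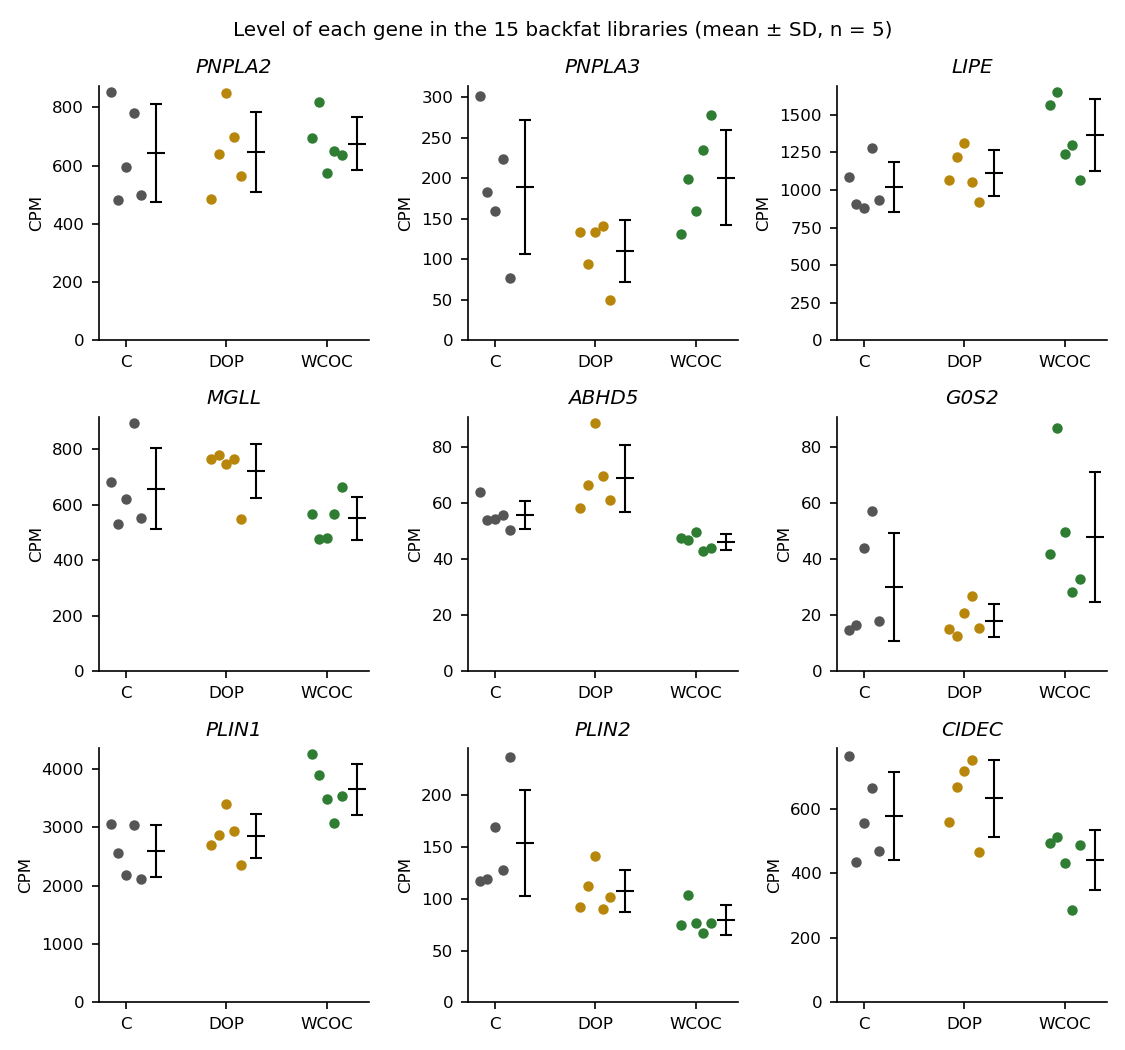
Level of each of the 9 genes by library (CPM, axes from 0), with the mean and SD of 5 libraries beside the points of each diet. PLIN1 is higher and PLIN2 and ABHD5 are lower in WCOC than in C without overlap, and G0S2 in WCOC lies above DOP from 28.4 CPM upwards. The share of all genes without such overlap is not given.

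The 4 lipases gave no call with edgeR in any comparison, and DESeq2 called 1 of them, PNPLA3, in WCOC vs. DOP. PNPLA2 (ENSSSCG00000012841, chromosome 2 from 513065 to 517962) was at 854, 481, 596, 782 and 498 CPM in control replicates 1 to 5, at 486, 638, 849, 699 and 563 CPM in DOP, and at 696, 817, 574, 650 and 636 CPM in WCOC. The diets overlapped throughout, and the log2FC was 0.01 in DOP vs. C (95% interval -0.38 to 0.40), 0.07 in WCOC vs. C (-0.32 to 0.46) and 0.06 in WCOC vs. DOP (-0.33 to 0.45). With 5 pigs per diet, a difference inside these intervals remains compatible with the data.

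LIPE (ENSSSCG00000003018, chromosome 6 from 49543671 to 49560126) was at 879 to 1277 CPM in C, 919 to 1312 CPM in DOP and 1067 to 1650 CPM in WCOC, with medians of 931, 1068 and 1296 CPM. Its log2FC in WCOC vs. C was 0.42 ± 0.15 (0.11 to 0.74) with an edgeR adjusted p of 0.0831, which DESeq2 gave as 0.0342. In WCOC vs. DOP it was 0.29 (-0.02 to 0.61, adjusted p 0.214) and in DOP vs. C 0.13 (-0.18 to 0.45, adjusted p 0.698).

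MGLL (ENSSSCG00000024134, chromosome 13 from 72480395 to 72568964) had its lowest mean in WCOC, at 552 ± 77.2 CPM against 658 ± 145 in C and 722 ± 96.6 in DOP. The log2FC was -0.25 in WCOC vs. C (-0.58 to 0.07), -0.39 in WCOC vs. DOP (-0.71 to -0.06) and 0.13 in DOP vs. C (-0.19 to 0.46), with edgeR adjusted p of 0.304, 0.108 and 0.702. DOP replicate 5, the library with the highest muscle sum, was at 550 CPM, and the other DOP libraries were at 746 to 780 CPM.

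PNPLA3 (ENSSSCG00000027266, chromosome 5 from 5075608 to 5092599) varied most among the lipases. It was at 301, 183, 160, 223 and 77.3 CPM in control replicates 1 to 5, at 134, 94.5, 133, 141 and 50.1 CPM in DOP, and at 131, 199, 160, 235 and 278 CPM in WCOC. DOP was the lowest group on average, but control replicate 5 lay below 4 of its 5 libraries. The log2FC was -0.77 in DOP vs. C (-1.48 to -0.07, edgeR adjusted p 0.245), 0.09 in WCOC vs. C (-0.62 to 0.79, adjusted p 0.895) and 0.86 in WCOC vs. DOP (0.15 to 1.57, adjusted p 0.104). DESeq2 gave the last of these an adjusted p of 0.0465, and with flow cell as a covariate the direction turned to a log2FC of -0.62 (edgeR adjusted p 0.637). The flow cell term of that fit rests on control replicate 5, the lowest control library (77.3 CPM). PNPLA3, LIPE and MGLL each overlap a gene model on the opposite strand.

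CIDEC, the droplet fusion protein of white fat (ENSSSCG00000011557, chromosome 13 from 66141836 to 66149801), had its lowest mean in WCOC. Its level was 764, 436, 557, 665 and 470 CPM in control replicates 1 to 5, 558, 668, 718, 751 and 465 CPM in DOP, and 494, 511, 432, 285 and 489 CPM in WCOC. WCOC replicate 4 was the lowest of all libraries, and the diets overlapped. The log2FC was -0.39 in WCOC vs. C (-0.79 to 0.02, edgeR adjusted p 0.211), -0.51 in WCOC vs. DOP (-0.92 to -0.11, adjusted p 0.0921) and 0.13 in DOP vs. C (-0.28 to 0.53, adjusted p 0.782).

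Over 4 lists of companion genes of the pathway, 37 genes were tested. Of these, 2.7% were called in DOP vs. C, 5.41% in WCOC vs. C and 8.11% in WCOC vs. DOP, beside 0.764%, 6.25% and 7.76% of all genes, which with 1, 2 and 3 genes called does not set the lists apart. Of 14 other lipases, 11 could be tested. LPL, the lipase that frees fatty acids from blood lipoproteins, was the most abundant, with 4344 CPM. Its log2FC was -0.56 in WCOC vs. DOP (edgeR adjusted p 0.0384), short of the limit of 0.58, so LPL was not called. It was -0.40 in WCOC vs. C (adjusted p 0.132) and 0.16 in DOP vs. C (adjusted p 0.677). Endothelial lipase (LIPG) was called lower in both olive diets, at 9.72 ± 2.65 CPM in DOP and 14 ± 8.64 CPM in WCOC against 35.1 ± 6.01 CPM in C. Its log2FC was -1.85 (SE 0.40, edgeR adjusted p 0.0452) in DOP vs. C and -1.33 (SE 0.39, adjusted p 0.0446) in WCOC vs. C. The first call was lost in 10 of 10 fits without 1 library (adjusted p 0.0525 to 0.114) and with limma-voom. The second held in 3 of 10 (0.0334 to 0.0933), being lost without any 1 of the 5 control libraries or WCOC replicate 2 or 3, and it was also lost on the flow cell shared with 4 controls. DDHD1, a phospholipase, was called lower in WCOC vs. DOP, with 34.3 ± 6.25 against 51.4 ± 5.23 CPM (log2FC -0.58, SE 0.12, adjusted p 0.00871). The adjusted p was at most 0.0236 in all 10 fits without 1 library, but the log2FC fell short of the limit without DOP replicate 2, 3 or 5 or WCOC replicate 4 or 5. The median log2FC of the 11 genes was 0.00 in DOP vs. C, -0.19 in WCOC vs. C and -0.14 in WCOC vs. DOP.

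Of 18 other droplet proteins, 13 could be tested, and FITM1 was listed at 0 in all libraries. PLIN4, a perilipin of white fat, was the most abundant with 2212 CPM and was the only one called, at 2810 ± 756 CPM in WCOC against 1730 ± 216 CPM in DOP (log2FC 0.70, SE 0.18, edgeR adjusted p 0.0248). This call was lost without DOP replicate 2, 4 or 5 or WCOC replicate 1 or 2 (adjusted p up to 0.057). In WCOC vs. C its log2FC was 0.42 (adjusted p 0.152). The median of these 13 genes was 0.03 in DOP vs. C, -0.01 in WCOC vs. C and 0.00 in WCOC vs. DOP.

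Protein kinase A phosphorylates PLIN1 and LIPE, and PDE3B breaks down the cyclic AMP that activates it. Of 10 genes listed for these steps 9 were tested, with medians of 0.16, 0.09 and 0.02 in the same order of comparisons. PRKAR2B, a regulatory subunit of the kinase and the most abundant of the list (313 CPM), was called higher in WCOC vs. C, with 392 ± 97.6 against 229 ± 35.4 CPM (log2FC 0.78, SE 0.17, edgeR adjusted p 0.0145), which held in 10 of 10 fits without 1 library. PRKAR2A, a related subunit, was called lower in WCOC vs. DOP, with 43.2 ± 4.69 against 67.6 ± 19.1 CPM (log2FC -0.65, SE 0.15, adjusted p 0.0150), a call lost without DOP replicate 5. With flow cell as a covariate, a fit that called only 1 of all genes in WCOC vs. DOP, the calls of DDHD1, PLIN4 and PRKAR2A were lost. Of 6 genes for the exit of fatty acids and glycerol, 4 were tested and 0 were called by edgeR, with 0 of them at an unadjusted p under 0.05 in DOP vs. C, 1 in WCOC vs. C and 2 in WCOC vs. DOP. Over all genes this share was 17.6%, 26.4% and 28.1%. FABP4, the fatty acid binding protein of the fat cell, was the most abundant of them (3544 CPM).

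Within the diets, 8 of the 9 genes were positively correlated with each other from pig to pig, some pairs only weakly. After the diet means were removed, the 28 pairs that leave out PLIN2 all had a positive Pearson's r over the 15 libraries, from 0.084 to 0.787, with a median of 0.496. The highest was that of PLIN1 and CIDEC (0.787). The 8 pairs with PLIN2 ran from -0.497 (with PNPLA3) to 0.212, with a median of 0.022, and 5 of them were positive. For comparison, the median over 619941 pairs formed from a regular sample of 1 gene in 10 was -0.005, with values from -0.978 to 0.992. These correlations are descriptions, since the genes of a pair share the libraries, their scaling and any difference in the make-up of the biopsies. None of the 9 genes had a relation with the macrophage or the skeletal muscle markers that held after adjustment over the 18 relations, and the lowest adjusted p was the 0.577 of PLIN2.

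**Figure D5:**
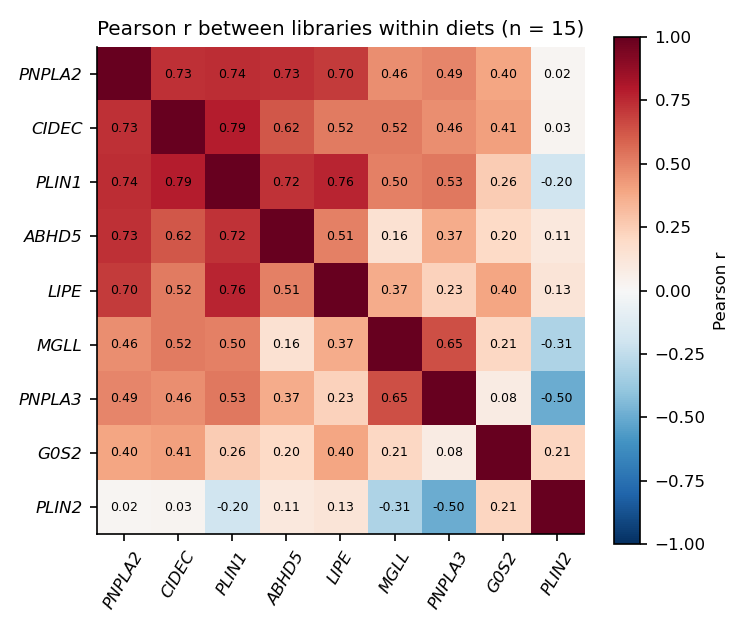
Pearson's r between the 9 genes over 15 libraries after the diet means of log2 CPM were removed, with the value printed in each cell and the colour scale from -1 to 1. PLIN1 and CIDEC share the highest value (0.79), and the PLIN2 row holds the lowest (-0.50, with PNPLA3).

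Among 11133 genes with a symbol and a mean of at least 1 CPM, the pattern within diets most like that of G0S2 was CAMK1G (r 0.943), a calcium-dependent kinase gene 63456 bases away on the same strand of chromosome 9, with 2 genes between them. CAMK1G was scarce, at 0.453 to 16.1 CPM. For PNPLA2 the nearest were ORMDL3 (0.936), RPLP2 (0.931) and RRP36 (0.926), of which RPLP2 is the next gene on the same strand, 3246 bases away. For PLIN1 they were TOM1L2 (0.94), PAICS (0.881) and MAST4 (0.871), and for CIDEC CHMP5 (0.93), LDHB (0.929) and TMBIM6 (0.923). The nearest to PLIN2 were PCK2 (0.911), GLA (0.889) and STXBP2 (0.834), which are other genes than those nearest to PLIN1. For LIPE they were DEF8 (0.899), RXRA (0.882) and STX6 (0.879), for MGLL RNF40 (0.837), GYG2 (0.827) and SMO (0.826), and for ABHD5 GINM1 (0.865), MCTP2 (0.864) and GTF2F2 (0.839). PNPLA3 was closest to POLR1E and SLC12A7 (0.855 each) and HES4 (0.839), and G0S2 after CAMK1G to BNC2 and LRRIQ3 (0.862 each). These values rank many genes over few libraries, and no p is given.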

How the data were processed

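RNA-seq libraries of backfat from 15 pigs were analysed, grouped by the diet in the labels. HISAT2 (alignment to Sscrofa11.1) and HTSeq-count were the tools of the authors, who deposited 1 table of raw counts per gene for each pig. Tool versions, the annotation release and the strand option of the counting are not given in the sources used here. Read pairs not counted on a gene (23.43% to 32.82% of a library) stayed out.

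The test was edgeR's two-sided quasi-likelihood F-test (edgeR 4.0.16 in R 4.3.3) with 1 mean per diet over all 15 libraries, TMM scaling and the 14918 genes that filterByExpr retained. The p of each gene was corrected across all of them (Benjamini-Hochberg). DEGs needed both an adjusted p under 0.05 and an absolute log2FC no smaller than 0.58. CPM and intervals were computed here, with a prior count of 1 for log2 CPM. Relations were centred within diets and permuted 100000 times within them.

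The members and lists were chosen with earlier results of these data known. Named are all members, called genes of the lists (at most 4 per list and comparison), the most abundant gene of each list and the 3 genes most like each member. Macrophage genes were named after their values were seen.

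Results were recomputed with other tools (DESeq2 1.42.0, voom of limma 3.58.1, robust quasi-likelihood), another scaling (DESeq2 size factors, or TMM computed without muscle markers and the top 50 genes by abundance), another filter (none, or 10 counts in each library) and another model (replicate block, flow cell covariate, only the diets compared, flow cell A by itself). The log2FC limit was also dropped, and each library was left out in turn. The workflow was tested on simulated data. Promoters and exon lengths are those of RefSeq on Sscrofa11.1. The remaining steps ran in Python 3.11.15 (pandas 2.3.3, numpy 2.4.6, matplotlib 3.10.9, scipy 1.17.1).

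Of the other marker lists, 0 of 5 endothelial and 0 of 4 T cell markers were called by edgeR in any comparison. The unadjusted p was under 0.05 for 0 T cell markers throughout and for 3 endothelial markers in DOP vs. C, 4 in WCOC vs. C and 1 in WCOC vs. DOP, beside 17.6%, 26.4% and 28.1% of all genes. Of 5 brown adipocyte markers 1 was called higher and 1 lower in WCOC vs. DOP, 2 of 5 muscle markers were called lower in WCOC vs. DOP, and of 8 adipocyte markers 1 was called higher in WCOC vs. C (ADIPOQ) and 1 in WCOC vs. DOP (LEP). ADIPOQ held in 6 of 10 fits without 1 library and was lost with the replicate block, with only the diets compared and on flow cell A alone. LEP held in 10 of 10 but was lost with flow cell as a covariate. The brown adipocyte calls, PPARGC1A and PRDM16, held in 2 and 4 of 10.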

Additional observations from a re-analysis of the deposited data

Results flagged for a closer look

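A single library stood apart from its diet in 2 of 27 groups of 5 libraries examined, and chance flags about 1 in 20 such groups. MGLL in DOP replicate 5 was at 550 CPM, and the nearest of the other DOP libraries was at 746 CPM, a gap of 0.851 of the whole range of the group. This library also had the highest skeletal muscle sum (46835 CPM). Without it, MGLL in DOP vs. C had an edgeR adjusted p of 0.591. PLIN2 in WCOC replicate 2 was at 104 CPM, and the nearest of the other WCOC libraries was at 76.7 CPM, a gap of 0.739 of the range. This library had the highest macrophage sum of its diet (385 CPM).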

How the results depend on the processing

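PLIN2 in WCOC vs. C was the only gene of the set called in that comparison under 11 alternatives, flow cell A alone among them, and in all 10 fits without 1 library, and without a log2FC threshold the count rose to 2, PLIN1 being added. In DOP vs. C the count of 0 rose to 1 with flow cell as a covariate. In WCOC vs. DOP the count of 1 rose to 2 with DESeq2 (PNPLA3 added) and without a log2FC threshold (ABHD5 added), and fell to 0 with flow cell as a covariate. It stayed at 1 in every fit without 1 library, but the gene was G0S2 in 4 of these and ABHD5 in the other 6. Replicate numbers did not pair the samples, since the correlation of same-numbered deviations ran from -0.495 to 0.345. With the replicate number as a block (replicate block) the count in WCOC vs. DOP was 0, G0S2 having a log2FC of 1.46 and an adjusted p of 0.056, and the block changed no other call of a member. Of the companion genes, LIPG against C and PLIN4 in WCOC vs. DOP were lost with the block, as were all calls of macrophage markers against C.

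Directions that turned all belong to values that were not called. With flow cell as a covariate, PNPLA3 in DOP vs. C was 0.51 and G0S2 0.006, PNPLA2 in WCOC vs. C was -0.008 and PNPLA3 -0.11, and in WCOC vs. DOP PNPLA2 was -0.39, PNPLA3 -0.62, PLIN1 -0.002 and PLIN2 0.40 (log2FC). On flow cell A alone, PNPLA2 in WCOC vs. C was -0.018 and PNPLA3 -0.12. Without 1 library, PNPLA2 ran from -0.12 to 0.13 in DOP vs. C, from -0.017 to 0.19 in WCOC vs. C and from -0.029 to 0.18 in WCOC vs. DOP, and PNPLA3 from -0.11 to 0.31 in WCOC vs. C. The cause was not tested. Of 612 recomputed values, 572 were counted as kept in direction and side of the threshold, 22 turned, 10 newly passed and 8 no longer passed. The 572 include the relations without the 2 libraries farthest from the median of the marker mean, which have no p. Among these, r changed sign for PNPLA3 and MGLL with the macrophage markers and for PNPLA3, LIPE, MGLL and CIDEC with the muscle markers.

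Over all genes, DEGs in DOP vs. C numbered 114, but 518 with DESeq2, 19 with limma-voom, 2 with only the diets compared, 0 with the block and 0 to 200 without 1 library. In WCOC vs. C they numbered 933, but 473 with the block, 486 on flow cell A alone, 1493 without a log2FC threshold and 468 to 1163 without 1 library. In WCOC vs. DOP they numbered 1158, but 561 with the block, 1 with flow cell as a covariate, 1842 without a log2FC threshold and 639 to 1291 without 1 library. With 5 pigs per diet and 1 pen each, p-values measure the spread between these pigs.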
